A study of Homo sapiens with 14 samples.

Results

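Small nucleolar RNA host genes are genes whose spliced transcripts carry small nucleolar RNAs (snoRNAs) in their introns. The members were the 31 genes whose symbol is SNHG followed by a number, or GAS5, ZFAS1 or EPB41L4A-AS1, among 62699 genes counted in 14 RNA-seq libraries. All 31 are annotated as long noncoding RNA genes by RefSeq. Poly(A) RNA was sequenced from 4 cancer cell lines of human origin. BT-549 and MDA-MB-231 came from triple-negative breast cancers, NCI-H1395 was derived from a lung adenocarcinoma and AGS from a gastric adenocarcinoma. In each line, cells given an siRNA against ADAR (2 libraries, numbered 1 and 2) were set against cells given a control siRNA (1 library). ADAR encodes ADAR1, the enzyme that converts adenosine to inosine in double-stranded RNA. MDA-MB-231 cells overexpressing NOP14, a nucleolar protein needed for the small ribosomal subunit, were set against cells named PCDH (1 library each). The sample titles mark numbers 1 and 2 as replicates, but no label says whether both used the same siRNA. No label says that libraries came from separate cultures either. The p-values within lines therefore measure the spread between libraries 1 and 2, which may be technical. Those over the 4 lines measure how far the difference from the control varied between lines.

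When a host transcript is spliced, its introns are released and trimmed to mature snoRNAs, and the joined exons are exported or degraded. Box C/D snoRNAs guide 2'-O-methylation and box H/ACA snoRNAs guide pseudouridylation, mainly of ribosomal RNA. Many host transcripts begin with a C followed by pyrimidines (the 5' terminal oligopyrimidine, or TOP, element shared with ribosomal protein mRNAs) and many are cleared by nonsense-mediated decay, so the level of the exons need not follow that of the snoRNAs. The counts below are of exons and say nothing of mature snoRNA levels.

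Of the 31 members, 25 enclosed at least 1 gene named SNORD or SNORA on their own strand, 135 such genes in all. SNHG14, the long imprinted transcript on chromosome 15, held 84 of them and the other hosts held 51. By this content 12 members were box C/D hosts, 11 were box H/ACA hosts, and SNHG12 and SNHG25 held both kinds. No SNORD or SNORA row of the table lay inside the other 6 members, GAS5, SNHG10, SNHG20, SNHG21, SNHG22 and SNHG28. GAS5 is nonetheless a classical box C/D host, and SNHG10, SNHG20 and SNHG22 overlapped the small Cajal body RNA genes SCARNA13, SCARNA16 and SCARNA17. The table placed 72 enclosed snoRNA genes wholly within annotated host exons, and all 72 had 0 counts in all 14 libraries. Whether reads shared with host exons were left uncounted was not tested, so these 0 counts do not show that the snoRNAs were absent. Of the 57 that overlapped no host exon, 12 had any counts.

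The starts of the host genes are shown first because the TOP element lies there and was not used in choosing the members. RefSeq promoter sequences (GRCh38.p14) matched 27 of the 31 members by symbol. Each line below runs from 40 bases before the start to 20 bases after it, 5' to 3' on the gene's strand. Capitals mark TATAA between 40 and 15 bases before the start, and a C at the start together with the pyrimidines that follow it, where that run holds at least 5 bases. The first 4 hosts hold both, the next 2 the run alone, SNHG7 the TATAA alone, and SNHG1 and GAS5 neither. The GAS5 window lies wholly upstream of the gene as counted.
ZFAS1 (chr20:49278602-49278661, plus strand): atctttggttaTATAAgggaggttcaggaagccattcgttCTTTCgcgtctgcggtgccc
SNHG12 (chr1:28581854-28581913, minus strand): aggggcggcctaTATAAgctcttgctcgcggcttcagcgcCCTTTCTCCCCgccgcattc
SNHG5 (chr6:85678714-85678773, minus strand): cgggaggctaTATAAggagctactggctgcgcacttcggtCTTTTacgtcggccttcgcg
SNHG19 (chr16:2155339-2155398, minus strand): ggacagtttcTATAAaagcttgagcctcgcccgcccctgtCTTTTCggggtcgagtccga
SNHG4 (chr5:139274061-139274120, plus strand): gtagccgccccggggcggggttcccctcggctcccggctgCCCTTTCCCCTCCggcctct
SNHG32 (chr6:31834876-31834935, plus strand): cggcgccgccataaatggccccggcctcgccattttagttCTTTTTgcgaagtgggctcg
SNHG7 (chr9:136728165-136728224, minus strand): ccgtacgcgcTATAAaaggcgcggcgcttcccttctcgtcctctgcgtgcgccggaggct
SNHG1 (chr11:62855866-62855925, minus strand): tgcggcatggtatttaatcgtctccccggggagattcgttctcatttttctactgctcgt
GAS5 (chr1:173869026-173869085, minus strand): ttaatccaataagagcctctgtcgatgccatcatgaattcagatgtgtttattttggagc

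A C with a run of at least 5 pyrimidines stood at the start of 7 of the 27 members (25.9%), namely ZFAS1, SNHG12, SNHG5, SNHG19, SNHG4, SNHG32 and SNHG18. The same feature stood at the start of 4.07% of all 35116 promoters and of 48 of 85 ribosomal protein genes (56.5%). TATAA lay in its window in 6 of the 27 members (22.2%) and in 3.94% of all promoters, and on the opposite strand in 1 member and in 1.75% of all promoters. The pyrimidine run read on the opposite strand was in 0 of the 27 members and in 3.43% of all promoters. Both features together were in 4 of 27 members (14.8%) and in 0.094% of all promoters. The 2 windows do not overlap. A match is a description of these letters in 1 annotated start per gene, and a start annotated a few bases away would not match. The windows of GAS5, SNHG3 and SNHG14 lay wholly upstream of the genes as counted. For these members the lack of a match says nothing of the counted transcript.

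In the libraries, 26 members averaged at least 1 CPM (TMM-scaled CPM, counts relative to the size of the library) over the 14 libraries, and 22 averaged at least 5 CPM. Summed over all 31 members, ADAR siRNA libraries 1 and 2 stood at 604 and 675 CPM in MDA-MB-231, against 741 CPM with control siRNA. In BT-549 the sums were 1239 and 965 CPM with ADAR siRNA, against 1284 CPM with control siRNA. The NCI-H1395 sums were 1327 and 1021 CPM with ADAR siRNA, against 1140 CPM with control siRNA. In AGS they were 1131 and 1042 CPM with ADAR siRNA, against 1341 CPM with control siRNA. Both ADAR siRNA sums were thus below the control in MDA-MB-231, BT-549 and AGS, and they lay on either side of it in NCI-H1395. The 6 most abundant members, SNHG29, GAS5, SNHG1, SNHG3, SNHG17 and SNHG6, made up 59.6% to 71.5% of the sum in each library.

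Several libraries and markers bear on these values. Total counts ranged from 13338338 to 27828376. ADAR was left at 10.7% to 33.3% of the control in the 8 ADAR siRNA libraries, most in MDA-MB-231, and NOP14 stood at 856 CPM in the overexpression library, against 130 CPM with PCDH. The lung markers NKX2-1, NAPSA, SFTPB and SFTPA1 were at 0.108, 0.0539, 0 and 0 CPM in the NCI-H1395 control, with EPCAM at 0.324 CPM and VIM at 2405 CPM, and the epithelial keratins KRT18 and KRT8 at 589 and 168 CPM. The AGS control had EPCAM at 385 CPM. Of the gastric markers, GATA4 was at 11.8 CPM there, and CLDN18, TFF1, TFF2 and MUC5AC at 0.400, 2.29, 0 and 0.114 CPM. In the MDA-MB-231 control siRNA library GATA4 was at 0 CPM. CLDN18, TFF1, TFF2 and MUC5AC were higher there than in AGS, at 0.672, 2.91, 5.04 and 2.18 CPM. ESR1 and PGR stayed under 1 CPM in all MDA-MB-231 and BT-549 libraries, and ERBB2 was between 59.8 and 130 CPM. The MDA-MB-231 siRNA libraries stood apart in SNORA73B, the box H/ACA RNA inside an intron of SNHG3, and in SNHG32. SNORA73B was at 152 and 195 CPM with ADAR siRNA and 234 CPM with control siRNA, and between 0.485 and 5.29 CPM in the other 11 libraries. SNHG32 was at 1.799 and 2.69 CPM with ADAR siRNA and 2.13 CPM with control siRNA, and between 14.5 and 50.8 CPM in the other 11.

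Host gene levels differed between the control siRNA libraries of the 4 lines. Among the 22 members at a mean of at least 5 CPM, the highest control siRNA library exceeded the lowest by 1.45-fold (SNHG16) to 19.5-fold (SNHG32), with a median of 3.32-fold. The median over 10796 genes at that level and detected in all 4 controls was 2.78-fold. BT-549 was highest for 9 members, AGS for 8, NCI-H1395 for 3 and MDA-MB-231 for 2. Each line had 1 control siRNA library, so these ratios have no replicate check. SNHG32 was lowest in the MDA-MB-231 control siRNA library, at 2.13 CPM. With PCDH in the same line it stood at 41.2 CPM, against 41.5 CPM in the AGS control. Between these 2 MDA-MB-231 controls 6 of 20 members were over 2-fold apart, as given below. Differences between lines and between libraries therefore cannot be told apart here.

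Levels were also taken per kilobase of annotated exon. For SNHG1, SNHG8, SNHG9, SNHG15, SNHG19 and EPB41L4A-AS1 this length equals the whole span of the gene, so a ranking between genes is only rough. SNHG6 and GAS5 led in the control siRNA libraries of MDA-MB-231 (20.6 and 17.5 CPM per kilobase) and of NCI-H1395 (62.5 and 33.6). In BT-549, SNHG3 led with 44.9 CPM per kilobase, ahead of SNHG6 with 36.2. In AGS, GAS5 led with 85.8 CPM per kilobase, ahead of SNHG29 with 28.3. Of the exon bases of SNHG6, 58.9% overlap MCMDC2 on the opposite strand, and no source used here states whether the counting used strand, which means that reads of the pair cannot be told apart. The same holds for 51.2% of EPB41L4A-AS1 (EPB41L4A), 37.6% of SNHG8 (PRSS12) and 30.3% of SNHG7 (DIPK1B). In bulk libraries, fewer cells of a type and less RNA per cell cannot be told apart either.

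**Figure D1:**
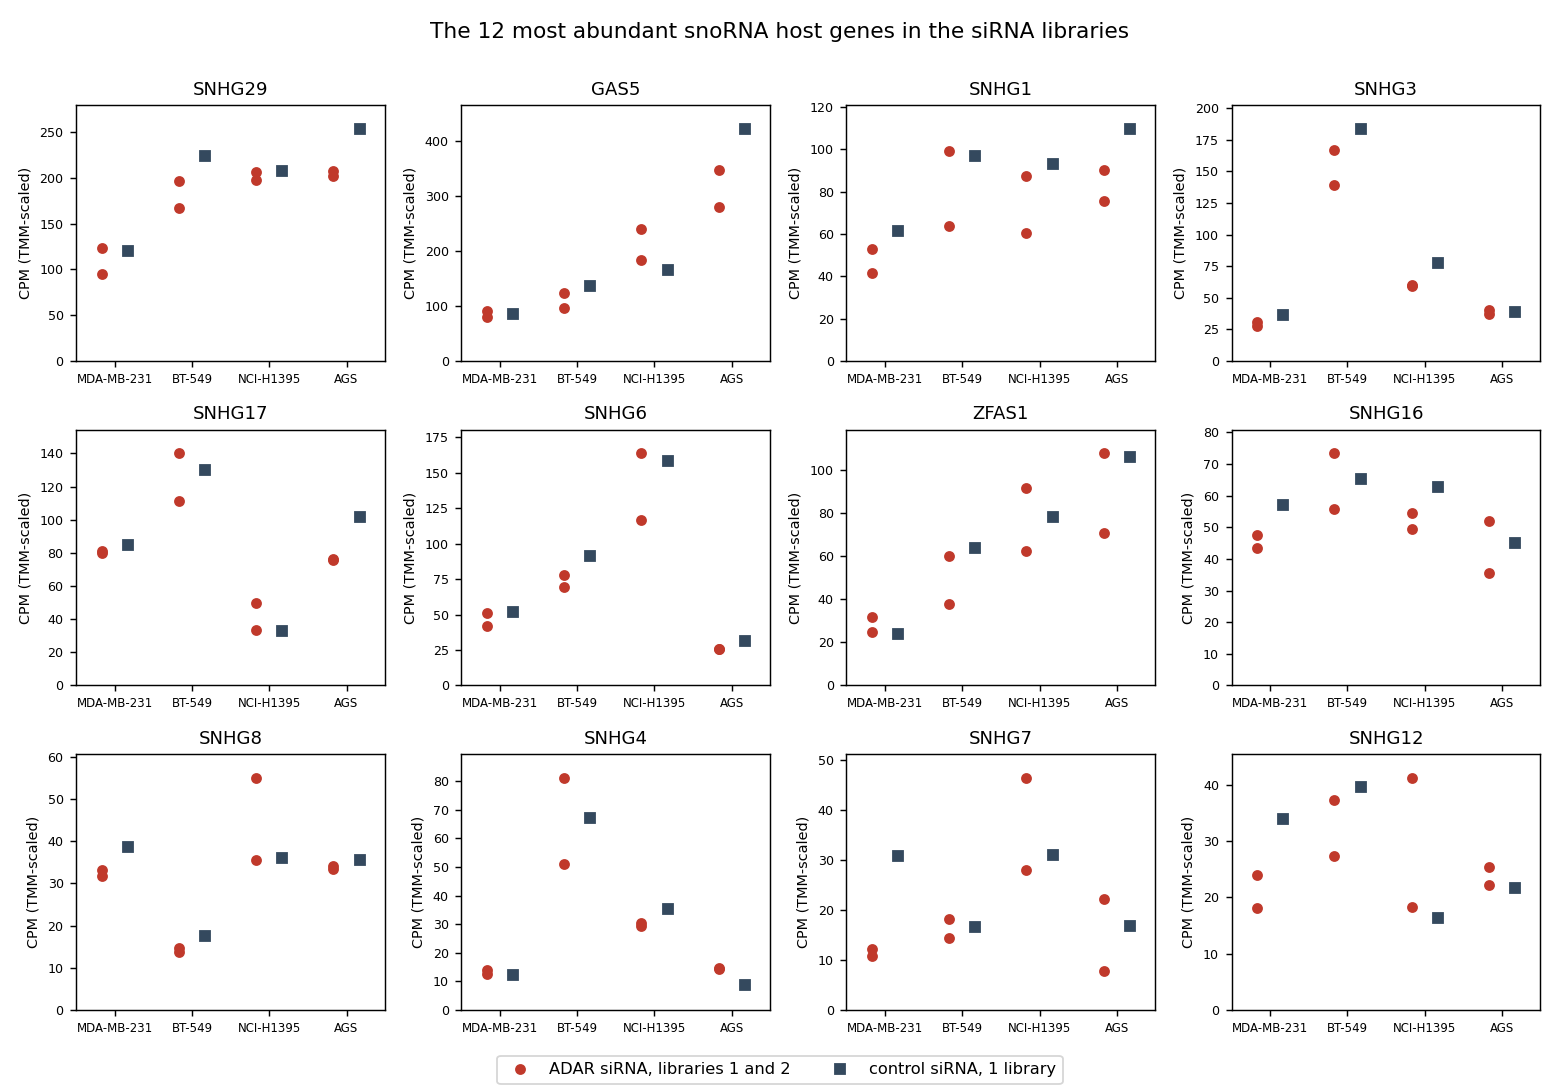
TMM-scaled CPM (vertical axes, each starting at 0) of the 12 most abundant host genes in the 4 lines, with ADAR siRNA libraries 1 and 2 as circles to the left and the single control siRNA library as a square to the right. SNHG7 in MDA-MB-231 stands at 10.9 and 12.2 CPM with ADAR siRNA, against 30.7 CPM with control siRNA, while SNHG29 and GAS5 differ more between lines than between treatments.

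With ADAR siRNA, no host gene passed the test over the 4 lines. Of 30 members tested 0 had an adjusted p under 0.05 in edgeR's quasi-likelihood test (0.0182% of all genes tested did), and 1 member, SNHG1, had an unadjusted p under 0.05 with a lower level (5.07% of all genes). With 3 residual degrees of freedom this test did not call ADAR either, the target of the siRNA, at -2.50 ± 0.29 on the log2 scale (edgeR adjusted p = 0.0996), while the fit within lines called ADAR in all 4, so 0 calls here does not show that host genes did not change. DESeq2 called 1 member, SNHG1, where it called 3.08% of all genes. The direction leaned lower: 21 of the 30 had a log2 fold change below 0, with a median of -0.10, and the median of all genes tested was 0.06 with 42.7% below 0. Among the 22 members at a mean of at least 5 CPM, 15 were below 0 with a median of -0.06, and among all genes at that level 50.5% were below 0 with a median of -0.0031. Without MDA-MB-231, whose siRNA libraries stood apart, 17 of 30 were below 0 with a median of -0.05 and 0 were called. SNHG28 was left out of the test, with 2 counts in all 14 libraries.

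Box C/D hosts come first. SNHG1, which encloses SNORD22, SNORD25 to SNORD28 and SNORD30, stood at 41.4 and 52.8 CPM in the ADAR siRNA cells of MDA-MB-231, against 61.4 CPM with control siRNA. In BT-549 it was at 99.5 and 64.0 CPM, against 96.7 CPM with control siRNA. It had 87.6 and 60.6 CPM in the ADAR siRNA cells of NCI-H1395, against 93.0 CPM with control siRNA, and 90.2 and 75.8 CPM in AGS, against 110 CPM. All but 1 of the 8 ADAR siRNA libraries, BT-549 library 1, lay below the control of their line. The log2 fold change over the 4 lines was -0.30 ± 0.11 (SE) with an adjusted p of 0.281 in edgeR and an unadjusted p of 0.0121. DESeq2 gave -0.34 ± 0.07 with an adjusted p of 0.00115. Without MDA-MB-231 edgeR gave -0.29 with an adjusted p of 0.313, and over all alternatives in edgeR the adjusted p ran from 0.174 to 0.766.

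SNHG29, the most abundant member by CPM, encloses SNORD49A, SNORD49B and SNORD65. It stood at 95.5 and 123 CPM in the ADAR siRNA cells of MDA-MB-231, against 120 CPM with control siRNA, and at 196 and 167 CPM in BT-549, against 224 CPM. It was at 207 and 198 CPM in the ADAR siRNA cells of NCI-H1395, against 207 CPM with control siRNA, and at 202 and 207 CPM in AGS, against 254 CPM. Both ADAR siRNA libraries lay below the control in BT-549, AGS and NCI-H1395, where library 1 was at 99.9% of it. Over the lines its log2 fold change was -0.16 ± 0.11, with 0.603 as the edgeR adjusted p.

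SNHG6, host of SNORD87, was at 42.1 and 51.3 CPM in the ADAR siRNA cells of MDA-MB-231, against 52.1 CPM with control siRNA, and at 77.9 and 69.7 CPM in BT-549, against 91.5 CPM. It was at 164 and 117 CPM in the ADAR siRNA cells of NCI-H1395, against 158 CPM with control siRNA, and at 26.0 and 26.0 CPM in AGS, against 31.5 CPM. All but NCI-H1395 library 1 were below the control. Its log2 fold change of -0.19 ± 0.11 did not pass (edgeR adjusted p = 0.551).

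ZFAS1, host of the SNORD12 family and a bearer of the pyrimidine run printed above, differed between the ADAR siRNA libraries. It stood at 31.8 and 24.7 CPM in MDA-MB-231, against 24.0 CPM with control siRNA, and at 60.4 and 38.1 CPM in BT-549, against 64.1 CPM. In NCI-H1395 it was at 92.0 and 62.4 CPM with ADAR siRNA, against 78.4 CPM with control siRNA, and in AGS at 108 and 71.1 CPM, against 106 CPM. Library 1 was above library 2 in all 4 lines, and 4 of the 8 libraries lay on each side of the control.

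SNHG16, host of SNORD1A to SNORD1C, had 43.5 and 47.7 CPM in the ADAR siRNA cells of MDA-MB-231, against 56.9 CPM with control siRNA, and 73.4 and 55.8 CPM in BT-549, against 65.1 CPM. It had 54.4 and 49.6 CPM in the ADAR siRNA cells of NCI-H1395, against 62.8 CPM with control siRNA, and 52.0 and 35.4 CPM in AGS, against 45.0 CPM. Library 1 lay above the control and library 2 below it in BT-549 and AGS.

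SNHG19, a short host with 614 exon bases, had the second smallest p over the lines. Its levels were 3.53 and 3.37 CPM in the ADAR siRNA cells of MDA-MB-231, against 4.93 CPM with control siRNA, and 9.90 and 8.11 CPM in BT-549, against 9.79 CPM. It was at 10.1 and 6.28 CPM in the ADAR siRNA cells of NCI-H1395, against 10.8 CPM with control siRNA, and at 0.769 and 2.37 CPM in AGS, against 3.54 CPM. A total of 7 of 8 libraries were lower, and AGS library 1, the lowest at 21.7% of its control, rested on 14 counts, against 62 in the control. The log2 fold change was -0.48 ± 0.23 (edgeR adjusted p = 0.452), and -0.30 without AGS.

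Among box H/ACA hosts, SNHG3, which encloses SNORA73A and SNORA73B, stood at 30.4 and 27.9 CPM in the ADAR siRNA cells of MDA-MB-231, against 36.3 CPM with control siRNA, and at 167 and 139 CPM in BT-549, against 184 CPM. It was at 60.4 and 59.4 CPM in the ADAR siRNA cells of NCI-H1395, against 77.9 CPM with control siRNA, and at 40.5 and 37.4 CPM in AGS, against 38.5 CPM. Both libraries were below the control in 3 lines, and in AGS they lay on either side of it. The log2 fold change was -0.21 ± 0.11 (edgeR adjusted p = 0.520).

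SNHG15, host of SNORA9, was at 17.2 and 20.1 CPM in the ADAR siRNA cells of MDA-MB-231, against 29.7 CPM with control siRNA, and at 27.9 and 15.9 CPM in BT-549, against 26.5 CPM. It was at 31.3 and 16.9 CPM in the ADAR siRNA cells of NCI-H1395, against 23.4 CPM with control siRNA, and at 30.5 and 25.1 CPM in AGS, against 34.3 CPM. In all, 6 of 8 libraries were lower, and the log2 fold change was -0.26 ± 0.15 (edgeR adjusted p = 0.542). It was -0.094 with only the number 1 libraries, -0.54 with only the number 2 libraries and -0.13 without MDA-MB-231.

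SNHG17, host of 5 SNORA71 genes, stood at 79.8 and 81.2 CPM in the ADAR siRNA cells of MDA-MB-231, against 84.8 CPM with control siRNA, and at 140 and 112 CPM in BT-549, against 130 CPM. It was at 49.6 and 33.3 CPM in the ADAR siRNA cells of NCI-H1395, against 33.1 CPM with control siRNA, and at 76.6 and 75.5 CPM in AGS, against 102 CPM. SNHG17 thus lay below its control in AGS and MDA-MB-231, and at or above it in NCI-H1395.

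SNHG8, host of SNORA24, was at 31.8 and 33.3 CPM in the ADAR siRNA cells of MDA-MB-231, against 38.6 CPM with control siRNA, and at 14.8 and 13.8 CPM in BT-549, against 17.4 CPM. It was at 55.1 and 35.6 CPM in the ADAR siRNA cells of NCI-H1395, against 36.0 CPM with control siRNA, and at 34.2 and 33.3 CPM in AGS, against 35.6 CPM. NCI-H1395 library 1 alone lay above its control, at 153% of it.

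SNHG4, host of SNORA74A, had 13.97 and 12.7 CPM in the ADAR siRNA cells of MDA-MB-231, against 12.2 CPM with control siRNA, and 81.3 and 51.2 CPM in BT-549, against 67.1 CPM. It had 29.2 and 30.6 CPM in the ADAR siRNA cells of NCI-H1395, against 35.3 CPM with control siRNA, and 14.3 and 14.5 CPM in AGS, against 8.69 CPM. Of the 8 libraries 5 were above their control, both of them in AGS and both in MDA-MB-231. SNHG4 shares 626 of its 4469 exon bases with MATR3 on the same strand.

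SNHG12, the mixed host of SNORD99 with SNORA16A, SNORA44 and SNORA61, stood at 18.1 and 23.9 CPM in the ADAR siRNA cells of MDA-MB-231, against 33.9 CPM with control siRNA, and at 37.2 and 27.3 CPM in BT-549, against 39.7 CPM. It was at 41.2 and 18.3 CPM in the ADAR siRNA cells of NCI-H1395, against 16.3 CPM with control siRNA, and at 25.4 and 22.1 CPM in AGS, against 21.7 CPM. Both libraries were lower in MDA-MB-231 and BT-549 and both were higher in NCI-H1395 and AGS. Over the lines it gave a log2 fold change of 0.04 ± 0.23, and -0.25 without NCI-H1395.

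GAS5, known as a growth arrest transcript whose RNA can bind the glucocorticoid receptor, stood at 80.9 and 91.5 CPM in the ADAR siRNA cells of MDA-MB-231, against 86.4 CPM with control siRNA, and at 124 and 96.1 CPM in BT-549, against 136 CPM. It was at 239 and 184 CPM in the ADAR siRNA cells of NCI-H1395, against 166 CPM with control siRNA, and at 347 and 281 CPM in AGS, against 423 CPM. Both libraries were higher in NCI-H1395 and both lower in BT-549 and AGS, and the log2 fold change was -0.06 ± 0.13 (edgeR adjusted p = 0.913), with 0.05 without AGS.

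By content, 10 of 12 box C/D hosts were below 0 over the 4 lines with a median log2 fold change of -0.15, and 7 of 11 box H/ACA hosts with a median of -0.02. Members with the pyrimidine run and a C at the start had a median of -0.05 (7 tested, 5 below 0), and the other members with a promoter had a median of -0.06 (19 tested, 12 below 0). Those others include GAS5, SNHG3 and SNHG14, whose promoter windows lay outside the counted gene. Protein-coding genes that enclose a SNORD or SNORA gene on their own strand gave 106 below 0 of 153 tested, a median of -0.10 and 0 called. Of all genes tested 42.7% were below 0 and 0.0182% were called. These counts are descriptions, since the members were chosen with earlier results known. The other 9 members at a mean of at least 5 CPM had log2 fold changes over the lines between -0.28 (SNHG7) and 0.19 (SNHG20). Without MDA-MB-231, SNHG7 was at 0.08. The 8 tested members under that level had edgeR adjusted p between 0.582 (SNHG22) and 0.912 (SNHG14).

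**Figure D2:**
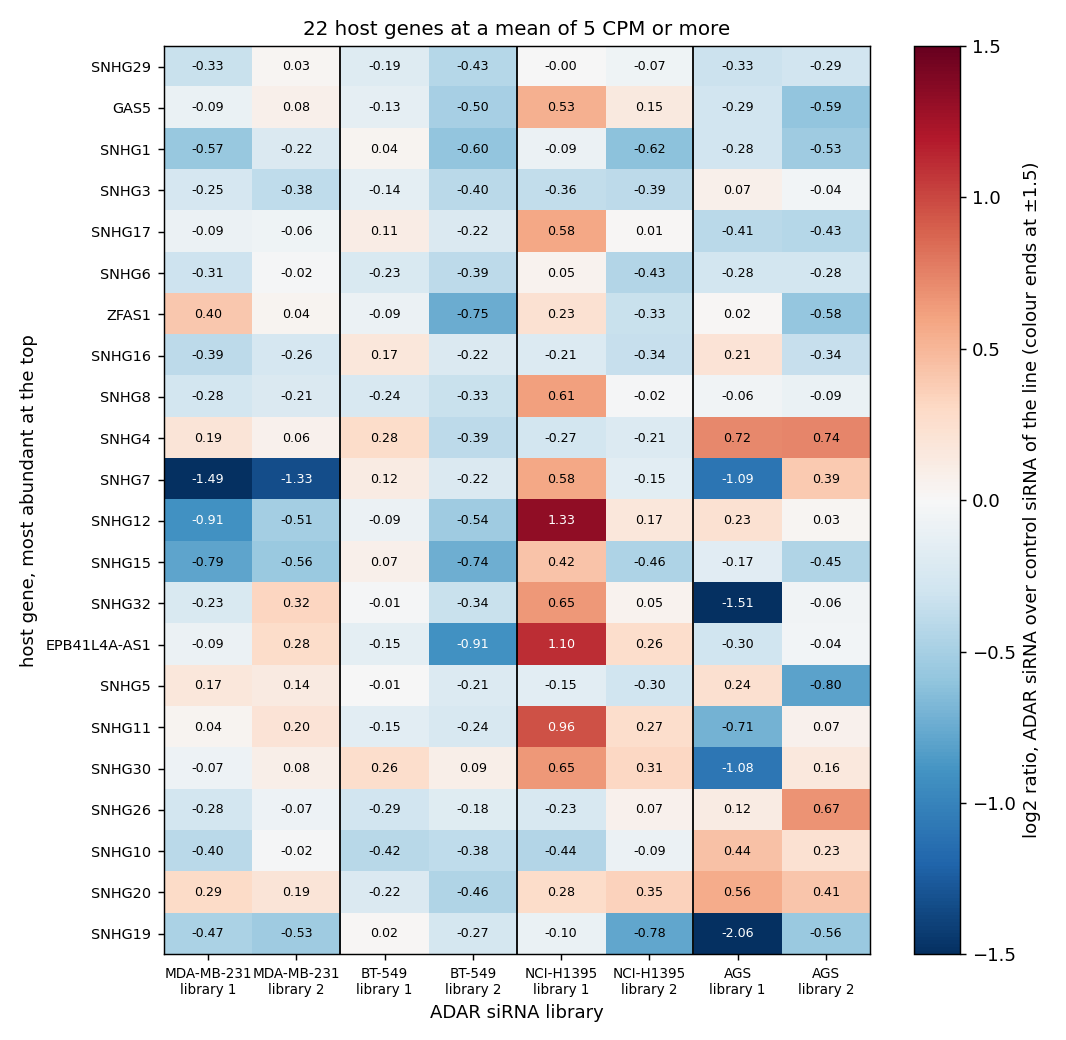
Log2 ratios of ADAR siRNA over control siRNA (prior count of 2) for the 22 host genes at a mean of at least 5 CPM, by ADAR siRNA library (columns, 2 for each line) with the most abundant gene at the top; blue is lower and red is higher than the control, and colours end at 1.5 in either direction. BT-549 library 2 is blue for 21 of 22 genes, and NCI-H1395 library 1 is red for 13.

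Within lines the calls were again 0. In the fit of 8 groups, edgeR called 0 members in MDA-MB-231 (0.0751% of all genes), 0 in BT-549 (0.00417%), 0 in AGS (0.00417%) and 0 in NCI-H1395 (0.00417%). At an unadjusted p under 0.05 the members were SNHG7 in MDA-MB-231 (4.85% of all genes), none in BT-549 (3.1%), SNHG12 in NCI-H1395 (5.3%) and SNHG4 in AGS (4.98%). DESeq2 called 0 members in MDA-MB-231 (0.188% of all genes), BT-549 (0.0125%), NCI-H1395 (0.196%) and AGS (0.0584%). The F test of a difference between lines called 0 members (0.0292% of all genes) and gave 0 at an unadjusted p under 0.05 (3.37%), with the smallest p, 0.0644, for SNHG12.

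SNHG7, host of SNORA17A and SNORA17B, had the lowest ratios in MDA-MB-231 among the members at a mean of at least 5 CPM. It stood at 10.9 and 12.2 CPM with ADAR siRNA, against 30.7 CPM with control siRNA, or 35.3% and 39.6% of the control. The other MDA-MB-231 control, PCDH, was at 58.5 CPM. The log2 fold change was -1.39 ± 0.46 (edgeR adjusted p = 0.586, unadjusted 0.00806). It was called without a count filter (adjusted p = 0.0420, with 0.258% of all genes called) and with the replicate block (edgeR adjusted p = 0.00897, with 0.781% called), and over the other alternatives the adjusted p ran from 0.554 to 1. SNHG7 lay at 109% and 85.9% of its control in BT-549. In NCI-H1395 it lay at 150% and 89.9%, and AGS had 46.6% and 131%.

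The genes around SNHG7 were lower as well in MDA-MB-231. The 50 nearest genes at a mean of at least 5 CPM, on chromosome 9 between 135808487 and 137870016 (hg38), had median log2 ratios of -0.95 in library 1 and -0.74 in library 2, against -1.49 and -1.33 for SNHG7. All 50 were lower in both libraries. This comparison was added after the values of SNHG7 had been seen, and the part of the region in the SNHG7 value was not tested. In AGS library 1, where SNHG7 was at -1.09, the same neighbours had a median of -0.65, and in AGS library 2, with SNHG7 at 0.39, a median of 0.02.

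Taken for every member at a mean of at least 5 CPM, the mean of the 2 library ratios was on the same side of 0 as the median of its 50 neighbours for 16 of 22 members in MDA-MB-231, 13 in BT-549, 12 in AGS and 12 in NCI-H1395. The neighbours' medians spanned -0.84 to 0.32 in MDA-MB-231 and -0.11 to 0.04 in BT-549. SNHG12 and SNHG3 share most of their neighbours, as do SNHG17 and SNHG11, and all points of a line share its 1 control library. In MDA-MB-231, GAS5, SNHG8, SNHG17, SNHG20, SNHG30 and SNHG32 stood on the other side from their neighbours. SNHG20 was at 0.29 and 0.19, with its neighbours at -0.35 and -0.19. Its ratios rest on 37 and 38 counts with ADAR siRNA and 37 with control siRNA.

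**Figure D3:**
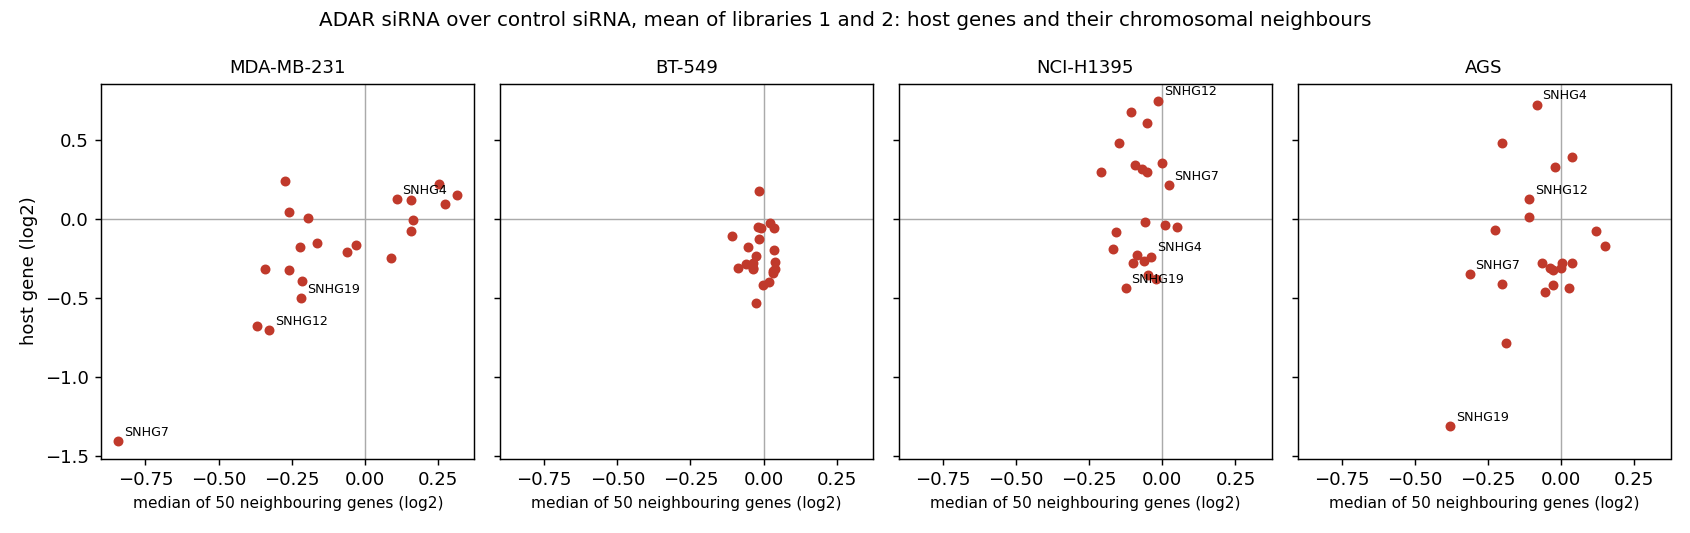
Log2 ratios of ADAR siRNA over control siRNA, as the mean of libraries 1 and 2, for the 22 host genes at a mean of at least 5 CPM (vertical axis) against the median of their 50 nearest genes (horizontal axis), with 1 panel for each line. SNHG7 sits lowest on both axes in MDA-MB-231, and in BT-549 the neighbours' medians stay between -0.11 and 0.04 while 21 of 22 host genes lie below 0.

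In BT-549 the members lay mostly below the control. Of 22 members at a mean of at least 5 CPM, 21 had a fitted log2 fold change below 0 with a median of -0.26, where 51.1% of all genes at that level were below 0 with a median of -0.0070. Both ADAR siRNA libraries were below the control for 14 of the 22 members at 5 CPM or more in the line (32.9% of all genes at that level), and both were above it for 1, SNHG30 (28.8%). The members' median log2 ratio was -0.38 in library 2 and -0.09 in library 1. The 2 members with the smallest p in BT-549 were SNHG14, with 1 and 1 counts with ADAR siRNA against 5 with control siRNA, and EPB41L4A-AS1. EPB41L4A-AS1, host of SNORA13, was at 16.1 and 9.49 CPM, against 17.9 CPM with control siRNA, a log2 difference of -0.49 ± 0.39 (adjusted p = 1 in edgeR), and -0.16 without library 2.

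In MDA-MB-231, 11 of 18 members at 5 CPM or more (61.1%) were lower in both libraries (49.9% of all genes at that level), and 4 were higher in both (28.8%), namely SNHG4, SNHG5, SNHG11 and ZFAS1. SNHG12 had the second smallest p there, at -0.67 ± 0.38 on the log2 scale (edgeR adjusted p = 1).

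NCI-H1395 leaned to neither side. Of 21 members 8 were lower in both libraries (39.8% of all genes at that level) and 7 were higher in both (28.2%), namely EPB41L4A-AS1, GAS5, SNHG11, SNHG12, SNHG17, SNHG20 and SNHG32. Its library 1 gave the highest ratios among the 22 members at a mean of at least 5 CPM, with SNHG12 at 253%, EPB41L4A-AS1 at 215% and SNHG11 at 196% of the control, and library 2 gave 112%, 120% and 120%. SNHG12 had a log2 fold change of 0.87 ± 0.41 in the line (edgeR adjusted p = 0.916), and 0.18 without library 1. SNHG22 came next by p, with 4 and 6 counts with ADAR siRNA and 0 with control siRNA. With both ADAR siRNA libraries pooled and the control set at a floor of 3 counts, the ratio was 1.54, which rests on these few counts.

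In AGS, 9 of 18 members were lower in both libraries (34.8% of all genes at that level), and 4 were higher in both (25.7%), namely SNHG4, SNHG12, SNHG18 and SNHG26. SNHG4 was at 165% and 167% of its control or 0.76 ± 0.35 on the log2 scale (edgeR adjusted p = 0.990). SNHG19 was at 21.7% and 66.9%, with -1.14 ± 0.56 (edgeR adjusted p = 1). Short hosts were low in AGS library 1. All 6 members with under 2000 exon bases, SNHG9, SNHG19, SNHG21, SNHG25, SNHG30 and SNHG32, were lower there, but SNHG9, SNHG21 and SNHG25 were under 1 CPM in all 3 AGS libraries. The other 3, at a mean of at least 5 CPM, had log2 ratios of -2.06 (SNHG19), -1.08 (SNHG30) and -1.51 (SNHG32), where 893 other genes that short at a mean of at least 5 CPM had a median of -0.24. SNHG32 was at 14.5 CPM in AGS library 1 and 39.9 CPM in library 2, against 41.5 CPM with control siRNA. In AGS library 2 the log2 ratios were -0.56 for SNHG19, 0.16 for SNHG30 and -0.06 for SNHG32, and the 893 genes had a median of -0.14. The length classes were added after the values had been seen, and the part of length in these ratios was not tested.

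No member at a mean of at least 5 CPM was lower in all 8 ADAR siRNA libraries (5.68% of all genes at that level were) and none was higher in all 8 (1.93%). SNHG25, which averaged under 1 CPM, was lower in all 8.

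ADAR siRNA library 2 was also set against library 1. In edgeR's test of library 2 against library 1 over the 4 lines, 0 members were called (0.0293% of all genes). Of the 30 members tested, 17 were lower in library 2 (45.3% of all genes tested). At an unadjusted p under 0.05 there were 2 members, both lower in library 2 (3.18% of all genes). ZFAS1 had a log2 difference of -0.55 ± 0.15 (edgeR adjusted p = 0.192), and SNHG15 had -0.44 ± 0.20 (edgeR adjusted p = 0.511). The members' median log2 ratio to the control was -0.26 in library 1 and -0.02 in library 2 of MDA-MB-231, -0.22 and -0.08 in AGS, and 0.26 and -0.08 in NCI-H1395. The medians of all genes at a mean of at least 5 CPM were -0.17 and -0.04 in MDA-MB-231, -0.04 and -0.00084 in AGS, and -0.02 and -0.08 in NCI-H1395.

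The proteins that assemble on snoRNAs were read from lists chosen with earlier results of these data known. Over the 4 lines edgeR called 0.0182% of all genes tested, so 0 called in a short list is near that share. Below 0 were 42.7% of all genes tested and 50.5% of those at a mean of at least 5 CPM. All 4 box C/D core proteins were below 0 over the 4 lines with a median log2 fold change of -0.26, and 0 were called. They included NOP56 at -0.31 ± 0.10 (edgeR adjusted p = 0.265), SNU13 at -0.25 ± 0.11 (0.380) and the methyltransferase FBL at -0.27 ± 0.12 (0.425). All 4 box H/ACA core proteins were below 0 with a median of -0.17 and 0 called, led by the pseudouridine synthase DKC1 at -0.27 ± 0.11 (edgeR adjusted p = 0.360), NHP2 at -0.26 ± 0.12 (0.413) and NOP10 at -0.09 ± 0.15 (0.887), which was at 0.12 without MDA-MB-231. Of 12 assembly and maturation factors 9 were below 0 with a median of -0.11, and 0 were called, among them the ATPases RUVBL2 at -0.39 ± 0.11 (edgeR adjusted p = 0.200) and RUVBL1 at -0.21 ± 0.11 (0.480), and ZNHIT6 at -0.22 ± 0.13 (0.537).

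Genes known to share the TOP element outside the ribosome gave 15 of 17 below 0 with a median of -0.16 and 0 called. Of all genes tested 42.7% were below 0 and 0.0182% were called. The smallest p were those of the elongation factor subunit EEF1B2 at -0.29 ± 0.11 (edgeR adjusted p = 0.303), the ribosome-bound scaffold RACK1 at -0.27 ± 0.11 (0.342) and EIF3E at -0.23 ± 0.12 (0.454). The factors of nonsense-mediated decay gave 6 of 14 below 0 with a median of 0.04 and 0 called, with EIF4A3 at -0.20 ± 0.10 (edgeR adjusted p = 0.480) and UPF3B at -0.21 ± 0.12 (0.527). DESeq2, which called 3.08% of all genes, called 5 genes of these lists, all lower: NOP56 (DESeq2 adjusted p = 0.00183) and NOP58, RUVBL2 (0.00959), and EEF1B2 (0.0253) and RACK1 (0.00192).

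NOP14 overexpression left the host genes close to their PCDH levels in this pair of libraries. Among 21 members at 5 CPM or more in either library, 14 were higher and 7 lower, with 0 past 1.5-fold higher (0.0812% of all genes) and 0 past 1.5-fold lower (0.0631%). The median log2 ratio was 0.06, and that of all genes at that level was -0.0046. At a mean of at least 5 CPM over the 14 libraries, 8 of 22 members were lower, and 52.5% of 11647 genes. There is 1 library in each arm, so the values have no replicate check, and the 95% intervals that follow are exact binomial intervals for counting error only. The 4 highest ratios were those of SNHG19, SNHG5, SNHG8 and ZFAS1, and the 4 lowest those of SNHG10, SNHG26, SNHG4 and SNHG30.

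SNHG19 stood at 5.07 CPM with NOP14 and 3.72 CPM with PCDH, a ratio of 1.36 (interval 1.03 to 1.81). SNHG5, host of SNORD50B, was at 6.76 CPM with NOP14 and 5.64 CPM with PCDH, a ratio of 1.198 (0.947 to 1.51). SNHG8 was at 33.6 CPM with NOP14 and 28.8 CPM with PCDH, a ratio of 1.16 (1.05 to 1.29), and ZFAS1 was at 29.1 and 25.9 CPM, a ratio of 1.12 (1.01 to 1.25). At the other end, SNHG10 was at 6.58 CPM with NOP14 and 8.62 CPM with PCDH, a ratio of 0.763 (0.616 to 0.944), and SNHG4 at 24.7 and 28.2 CPM, a ratio of 0.876 (0.783 to 0.980). SNHG26 gave a ratio of 0.866 (0.700 to 1.07) and SNHG30 one of 0.940 (0.789 to 1.12). Of the 21 intervals 7 left out a ratio of 1. The same count was not taken over all genes, so it is not a result about the host genes. The more abundant hosts had narrower intervals, with GAS5 at 1.02 (0.967 to 1.07) and SNHG1 at 0.979 (0.932 to 1.03).

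**Figure D4:**
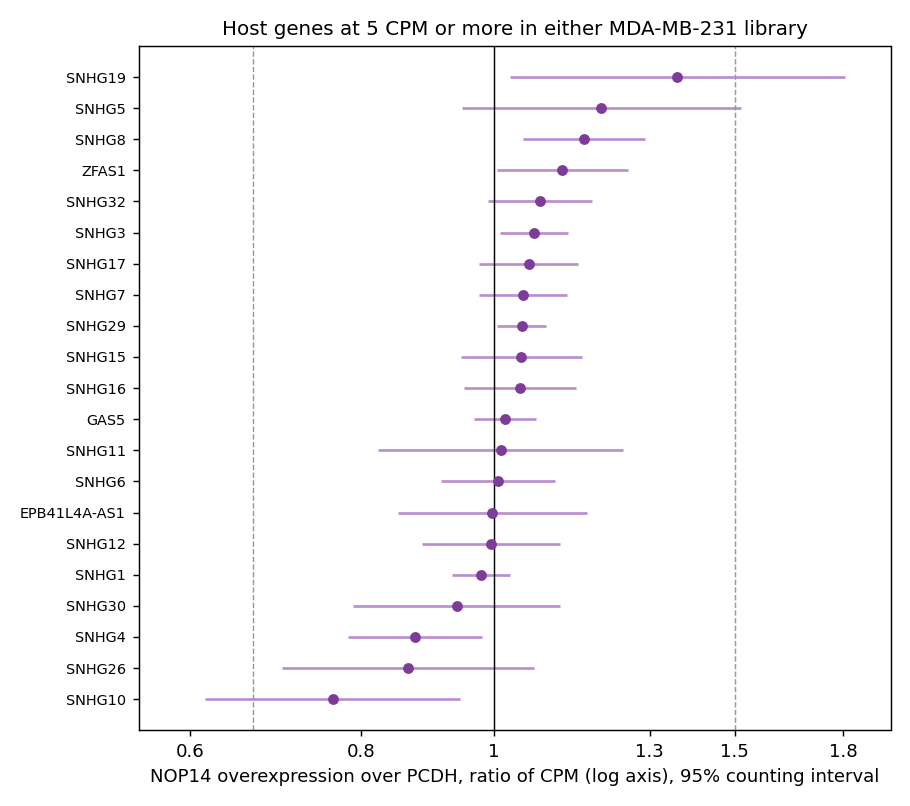
Ratio of CPM with NOP14 overexpression over PCDH (log axis) for the 21 host genes at 5 CPM or more in either MDA-MB-231 library, with 95% counting intervals; dashed lines mark 1.5-fold in each direction. All 21 ratios lie between 0.763 and 1.36.

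The 2 MDA-MB-231 controls differed from each other by more than NOP14 did from PCDH. Between the control siRNA library and PCDH, 6 of 20 members at 5 CPM or more were over 2-fold apart (30.0%, against 15.5% of 11408 genes). SNHG32 was at 2.13 CPM with control siRNA and 41.2 CPM with PCDH, and SNHG1 at 61.4 and 139 CPM. SNHG3 was at 36.3 CPM with control siRNA and 95.5 CPM with PCDH, SNHG4 at 12.2 and 28.2 CPM, and SNHG30 at 4.59 and 11.4 CPM. SNHG5 went the other way, at 12.4 CPM with control siRNA and 5.64 CPM with PCDH. NOP14 itself was at 351 CPM with control siRNA and 130 CPM with PCDH, and at 273 and 318 CPM in the ADAR siRNA libraries of MDA-MB-231. These differences are not part of either treatment comparison, and what lies behind them was not tested.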

How the data were processed

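The authors deposited whole-number read counts for each gene in 14 libraries. Per the submitters' processing notes, the tools were featureCounts 2.0.6, STAR 2.7.11a and fastp 0.23.4, with hg38 as the build. Of 62702 lines, 3 broken lines of 1 gene were left out. No source used here gives the strand setting. Fits used edgeR 4.0.16 in R 4.3.3 (robust quasi-likelihood, TMM, filterByExpr, Benjamini-Hochberg at 0.05). For the comparison across lines, both ADAR siRNA libraries of each line were added together, with terms for line and treatment and 3 residual degrees of freedom. Within lines, 8 groups were fitted to 12 libraries with 4 residual degrees of freedom, which assumes that the lone control varies as the ADAR siRNA pairs do. NOP14 has 1 library per arm and no test. Per-library log2 ratios used a prior count of 2. Alternatives included DESeq2 1.42.0. The edgeR fits over the lines, within AGS, between lines and between libraries were tested on simulated counts. The members, lists and rules were chosen with earlier results of these data known. Values are given for the 12 members with the highest mean CPM, the 4 with the smallest p over the lines, the 2 with the smallest p in each line, and the 4 highest and lowest NOP14 ratios. In the other lists the 3 smallest p are named, except that 1 of them is not reported here. Promoter windows came from RefSeq, GRCh38.p14.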

Additional observations from a re-analysis of the deposited data

How the results depend on the processing

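No member was called in any fit other than SNHG1 with DESeq2 over the 4 lines (1 call) and SNHG7 in MDA-MB-231 without a count filter and with the replicate block (1 call each). DESeq2 also called 2 of the box C/D core proteins, 2 of the TOP genes outside the ribosome and 1 assembly factor, where edgeR called 0. The cause was not tested. Counts of members and of listed genes below 0 stayed within 1.5 times the main count under every alternative. Of the log2 fold changes named over the lines, SNHG12 turned to -0.20 with the number 2 libraries, -0.027 with unsummed libraries and -0.034 with these and a replicate block, and leaving out 1 line gave -0.25 (without NCI-H1395) to 0.28 (without MDA-MB-231), with -0.0061 without AGS. GAS5 turned to 0.021 with the number 1 libraries, and leaving out 1 line gave -0.21 (without NCI-H1395) to 0.047 (without AGS), with 0.026 without BT-549. Leaving out 1 line gave -0.50 (without NCI-H1395) to 0.076 (without MDA-MB-231) for SNHG7 and -0.20 to 0.12 (without MDA-MB-231) for NOP10; the other named ones kept their sign. With only the number 2 libraries SNHG1 was at -0.48, against -0.30. The labels tie the numbers 1 and 2 to nothing shared between lines. The correlation of library 2 minus library 1 between lines ran from -0.0797 to 0.445. It was over 0.1 in 3 of 6 pairs, those among BT-549, NCI-H1395 and AGS. What lies behind these correlations was not tested. The main fits of ADAR siRNA did not take the numbers as shared between lines. The replicate block and the test of library 2 against library 1 did. With unsummed libraries 23 members were below 0 over the lines both with and without the replicate block. DESeq2 called 676 genes over the lines and edgeR 4, and without a count filter edgeR called 394. Leaving out 1 line gave 17 to 23 members below 0. With library totals in place of TMM the summed member CPM of the control libraries was 691 in MDA-MB-231, 1198 in BT-549, 1191 in NCI-H1395, 1321 in AGS and 876 with PCDH, against 741, 1284, 1140, 1341 and 956. Members under 1 CPM rest on few counts.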
